A study of Mus musculus with 23 samples.

Results

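Interferon-stimulated genes are genes whose transcription rises when a cell receives an interferon signal. The 39 genes described here were chosen by symbol from textbook members of the response and make up 39 of the 24063 gene symbols in the deposited tables. They are Stat2, Irf9, Irf1 and Irf7 (transcription factors), Ifih1, Ddx58, Dhx58, Zbp1 and Eif2ak2 (sensors of foreign nucleic acid), Ifit1, Ifit2 and Ifit3, and Oas1a, Oas2, Oas3, Oasl1 and Oasl2. The list goes on with the GTPases Mx1, Mx2, Gbp2, Gbp3 and Gbp7, with Isg15, Usp18, Herc6 and Trim25 (the ISG15 conjugation system), and with Parp9, Dtx3l and Parp14. Rsad2, Cmpk2, Bst2, Samd9l and Rtp4 (antiviral effectors) and Ifi35, Ifi44, Ifi27, Xaf1 and Lgals3bp complete it. After a filter on low counts, 34 of the 39 were tested in a fit of 23 libraries that covered 12867 genes. Ifit1, Ifit3, Mx2, Oas1a and Oas2 had too few reads for it.

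Type I interferons bind the receptor chains IFNAR1 and IFNAR2, whose kinases JAK1 and TYK2 activate STAT2. With IRF9 it takes part in a complex that binds the interferon-stimulated response element in promoters, while the interferon gamma receptor signals through JAK1 and JAK2. Many of the induced proteins restrict viruses.

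RNA-seq was done on mouse cells sorted as CD138+B220-, the surface phenotype of plasma cells, in 6 groups. The 3 control libraries came from bone marrow (BM) of mice of genotype IgG1-Cre, with Cre but neither oncogene. The donor lines VQ-D5, VQ-D4, VQ-D2 and VQ-D1 carry Vκ*MYC; NrasLSL Q61R/+; IgG1-Cre, that is, a MYC transgene under Vκ light chain control with an oncogenic Nras allele that Cre switches on. The fifth line, t-VK12653, carries Vκ*MYC with no Nras allele or Cre named. All 5 lines are myeloma cells recovered from transplanted recipient mice, with 4 libraries each. VQ-D1 and t-VK12653 were taken from BM, spleen, BM and spleen in replicate order, VQ-D2 from spleen, spleen, lymph node (LN) and LN, VQ-D4 from BM, liver, spleen and LN, and VQ-D5 from BM, BM, LN and LN. Each line stems from 1 donor, so a difference between lines is a difference between donors' tumours, and p-values measure the spread between libraries, some of which may share a recipient.

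Total counts ran from 2685579 to 10047314 per library, with a median of 4626666. All 11 plasma cell markers examined had reads in every group. The summed level of 16 neutrophil genes was 3076 to 8794 CPM (read counts scaled to library size) in the controls and 4.56 to 1208 CPM in the tumour libraries. None of these 16 genes was at 0 in any group. All 16 were lower than the controls in every line except VQ-D2, where 11 of 16 were. Markers of other blood cells were lower too, in each line: 8 to 11 of 11 tested B cell genes, 11 of 11 erythroid, 7 to 10 of 10 monocyte and macrophage and 6 to 8 of 9 T and NK cell genes. Their summed levels in the controls were 844 to 1327 CPM (B cell), 163 to 1005 (erythroid), 374 to 1355 (monocyte and macrophage) and 146 to 166 (T and NK cell). In the tumour libraries they were 68.2 to 396, 2.01 to 69.6, 17.8 to 190.4 and 21.9 to 79.8 CPM. Among defining markers, Blk was at 0 in all lines but VQ-D5, and Pax5 in VQ-D4 and t-VK12653. Neutrophils and these other cells also express interferon-stimulated genes, and their part in the control levels below was not tested. Control replicate 2 held the most neutrophil RNA. In bulk RNA, fewer cells of a type and less RNA per cell cannot be told apart.

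Promoters of these genes are known for the response element, and a window of 250 bases before to 50 after the start site was available for 29 of the 39 genes (RefSeq, GRCm38.p6). The core of the element was searched on both strands as GAAANN directly followed by GAAA. It was present in 14 of the 29 genes (48.3%) and in 3.99% of the 27025 genes with a window. The longer form, the core directly followed by CT, was present in 8 of 29 (27.6%) and in 0.303% of all genes. TTCNNNGAA, the palindrome of gamma-activated sites, was present in 7 of 29 (24.1%) against 9.55% of all genes. A match is a description of letters, not a measured site. Below are 4 of the windows, those of Gbp3 (chr3:142559794-142560093, plus strand), Gbp7 (chr3:142530086-142530385, plus strand), Bst2 (chr8:71537423-71537722, minus strand) and Ddx58 (chr4:40239776-40240075, minus strand). They are those with the highest mean level among the genes given library by library whose window holds the core, and they include genes called higher and genes called lower in the tumour lines. Sequences run 5′ to 3′ on the gene's strand, and capitals mark the core or its reverse complement.
Gbp3: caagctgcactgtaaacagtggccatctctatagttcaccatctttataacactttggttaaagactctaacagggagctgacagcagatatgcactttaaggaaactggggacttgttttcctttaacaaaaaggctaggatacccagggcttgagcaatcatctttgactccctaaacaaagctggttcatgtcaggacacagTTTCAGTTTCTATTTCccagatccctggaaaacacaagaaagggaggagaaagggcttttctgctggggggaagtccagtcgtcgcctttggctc
Gbp7: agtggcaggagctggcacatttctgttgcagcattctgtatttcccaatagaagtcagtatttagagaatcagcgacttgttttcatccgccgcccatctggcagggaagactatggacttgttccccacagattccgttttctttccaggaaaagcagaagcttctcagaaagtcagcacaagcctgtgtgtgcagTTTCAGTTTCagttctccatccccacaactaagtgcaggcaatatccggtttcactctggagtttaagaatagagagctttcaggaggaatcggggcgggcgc
Bst2: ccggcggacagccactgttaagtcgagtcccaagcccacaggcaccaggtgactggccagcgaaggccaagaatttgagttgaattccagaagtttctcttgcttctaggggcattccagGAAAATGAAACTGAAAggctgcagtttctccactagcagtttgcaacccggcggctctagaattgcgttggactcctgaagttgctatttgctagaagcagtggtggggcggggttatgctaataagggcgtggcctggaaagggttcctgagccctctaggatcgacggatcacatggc
Ddx58: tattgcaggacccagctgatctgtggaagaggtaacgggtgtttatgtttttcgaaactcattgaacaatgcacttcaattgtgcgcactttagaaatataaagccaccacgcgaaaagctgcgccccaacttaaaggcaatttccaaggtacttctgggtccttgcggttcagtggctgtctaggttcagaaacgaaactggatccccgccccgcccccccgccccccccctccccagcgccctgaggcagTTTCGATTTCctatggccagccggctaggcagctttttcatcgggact
The first core lay 45 bases before the start site in Gbp3 (position -45), 53 in Gbp7 (-53) and 130 in Bst2 (-130), and it began at position 3 of the transcript in Ddx58. Gbp3 and Bst2 each hold 2 overlapping copies. The other genes with the core were Stat2, Ifih1, Eif2ak2, Ifit1, Ifit3, Oas1a, Oas3, Gbp2, Isg15 and Rsad2.

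Against the controls, most of the interferon-stimulated genes were lower in VQ-D4, VQ-D5 and t-VK12653, while VQ-D1 and VQ-D2 were split between higher and lower genes. Genes were called at a Benjamini-Hochberg adjusted p under 0.05 over all genes tested, from edgeR's quasi-likelihood test with tissue in the model. In t-VK12653, 28 of the 34 tested genes were lower and 2 were higher (all genes: 28.1% lower, 28.8% higher). VQ-D5 had 22 lower and 6 higher (32.5% and 31.2% of all genes). VQ-D4 had 24 lower and 4 higher (26.9% and 27.5%); its liver library is the only one from liver and is absorbed by its own tissue term, so this comparison rests on 3 libraries. Without VQ-D4 replicate 1, the number lower in VQ-D4 was 14. VQ-D1 had 11 lower and 8 higher (29.7% each way), and VQ-D2 had 9 lower and 10 higher (27.8% and 29.6%). In VQ-D1 and VQ-D2 the shares called were thus close to those of all genes. VQ-D2 has no BM library, so its comparisons with the BM controls depend on site differences from BM estimated in other lines. Fits of BM libraries alone leave VQ-D2 out. The 10 of VQ-D2 became 6 when control replicate 2, control replicate 3, VQ-D2 replicate 1, VQ-D5 replicate 1 or VQ-D5 replicate 4 was left out, and also with RLE scaling. The 2 of t-VK12653 became 1 without control replicate 2 or t-VK12653 replicate 1.

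The median log2 fold change over the 34 genes was -2.69 in t-VK12653, -2.06 in VQ-D5, -1.21 in VQ-D4, -0.60 in VQ-D2 and -0.54 in VQ-D1. Over all genes tested the medians lay between -0.04 and 0.02. Without the filter, with all 39 genes, the median was -0.27 in VQ-D2 and turned to 0.13 in VQ-D1. In t-VK12653, Mx1, Rtp4 and Ifi44 had no read in any library, and with these at the bound of 3 counts per group the median was -2.64. All 5 comparisons share the 3 controls. Libraries lay wholly below the controls for 27 genes in t-VK12653 (26.2% of all genes), 22 in VQ-D5 (30.5%), 20 in VQ-D4 (24.4%), 9 in VQ-D2 (28.1%) and 13 in VQ-D1 (27.1%). They lay wholly above for 2 in t-VK12653 (30.1%), 8 in VQ-D5 (36.1%), 4 in VQ-D4 (29.1%), 10 in VQ-D2 (37.5%) and 10 in VQ-D1 (34.6%). Genes lower in all 5 lines were Stat2, Irf7, Ddx58, Herc6, Rsad2, Cmpk2 and Samd9l, 7 of 34, where 8.69% of all tested genes had that pattern. None of the 34 was higher in all 5 lines, a pattern of 9.24% of all genes. Gbp3, Trim25 and Bst2 were higher in 4 lines and lower in none. A further 9 genes, Irf9, Eif2ak2, Gbp2, Gbp7, Dtx3l, Ifi35, Ifi44, Xaf1 and Lgals3bp, were higher in at least 1 line and lower in at least 1 other (17.0% of all genes).

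**Figure D1:**
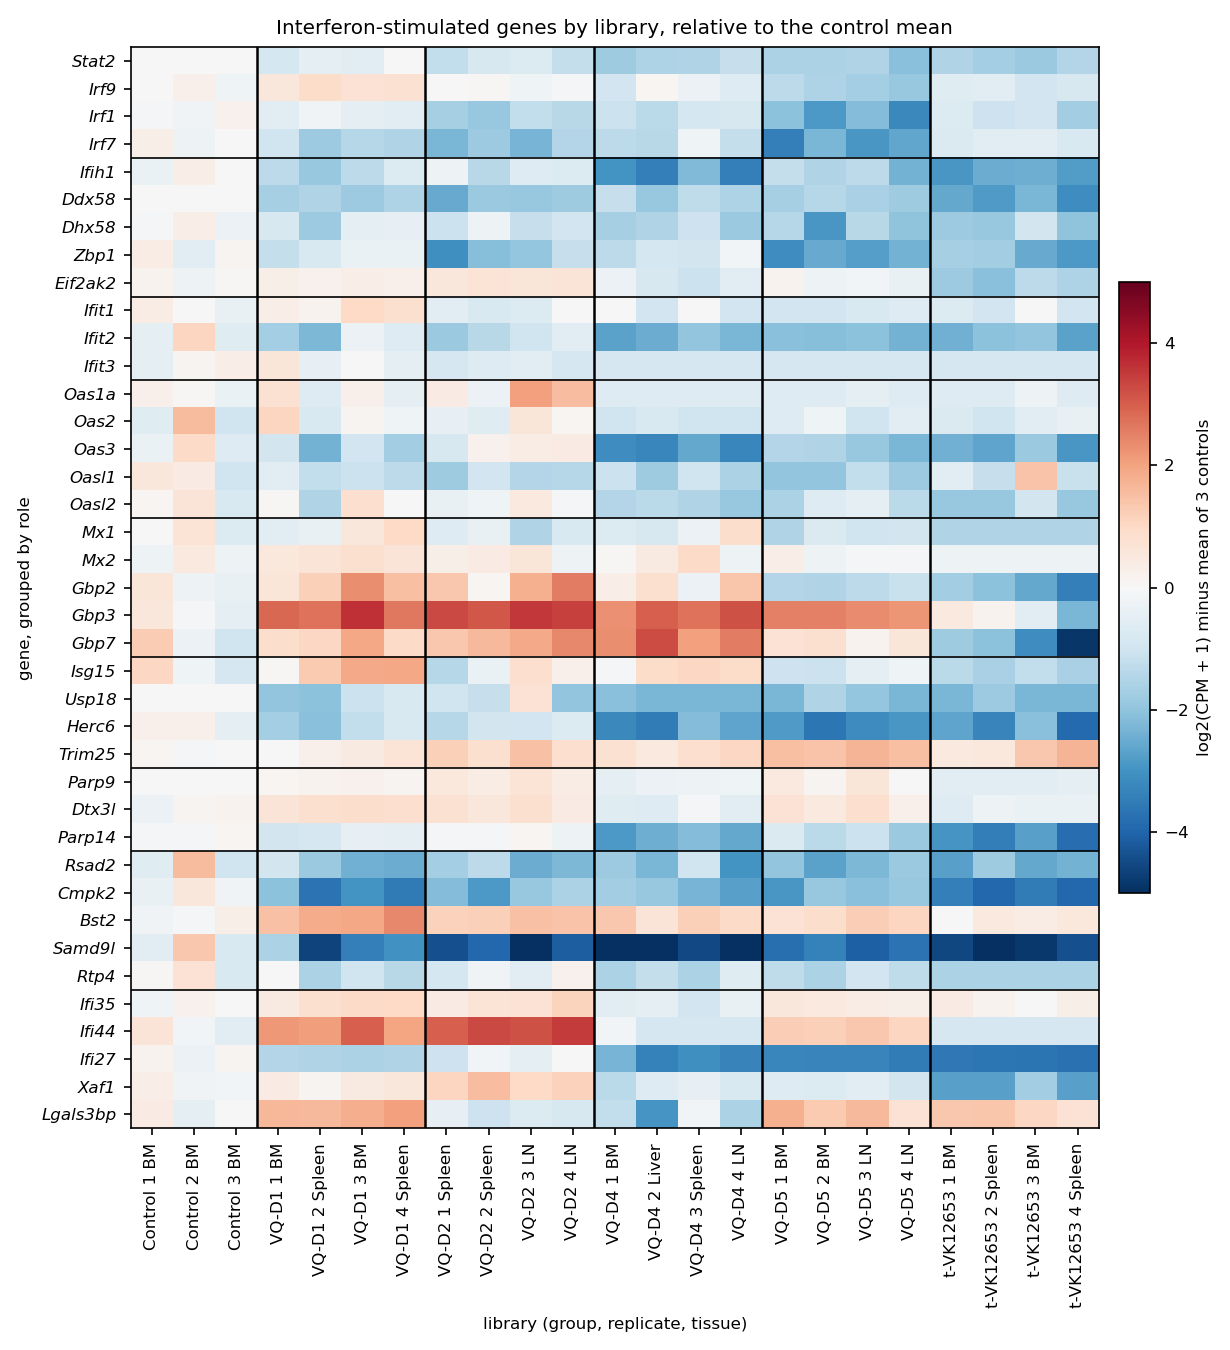
Level of each of the 39 genes (vertical axis, grouped by role) in each of the 23 libraries (horizontal axis, with tissue), as log2(CPM + 1) minus the mean of the 3 controls, with colours that saturate at 5 log2 units either way. Blue predominates in VQ-D4, VQ-D5 and t-VK12653, while Gbp3 is red in all 16 VQ libraries and Ifi44 in those of VQ-D1, VQ-D2 and VQ-D5.

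The 39 genes together made 1255 ± 75.4 CPM (SD, n = 3) in the controls, and (n = 4 each) 812 ± 43.7 in t-VK12653, 1312 ± 142 in VQ-D5, 1265 ± 131 in VQ-D4, 1620 ± 181 in VQ-D2 and 1695 ± 249 in VQ-D1. Gbp3, Trim25 and Lgals3bp alone gave 19.4% of this sum in the controls and 41.2% to 58.8% in the tumour lines. At the other end, 12 of the 39 genes averaged under 5 CPM in the controls, and 23, 24, 22, 16 and 18 did so in t-VK12653, VQ-D5, VQ-D4, VQ-D2 and VQ-D1. One read was worth 0.0978 to 0.328 CPM. On the length-corrected TPM scale, Zbp1 had the highest mean level in the controls (118 TPM), Bst2 in VQ-D1 (376 TPM), Gbp3 in VQ-D2 (328 TPM) and VQ-D4 (191 TPM), and Lgals3bp in VQ-D5 (207 TPM) and t-VK12653 (159 TPM).

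Of the transcription factors, Irf7, which amplifies the response, and Stat2, a subunit of the response complex, were lower in every line. Irf7 stood at 33.9, 22.8 and 27.5 CPM in the controls, 13.3, 7.11, 9.59 and 9.22 in VQ-D1 and 4.83, 7.23, 4.67 and 9.46 in VQ-D2. It stood at 10.7, 9.85, 23.5 and 11.6 CPM in VQ-D4, 1.72, 4.94, 2.82 and 3.8 in VQ-D5 and 16.2, 18.3, 18.7 and 15.8 in t-VK12653. One VQ-D4 library, from spleen, lay within the range of the controls, and all the other tumour libraries lay below it. The log2 fold change against the controls was largest in VQ-D5, at -3.14 (SE 0.37, adjusted p = 1.7e-07), and smallest in t-VK12653, at -0.75 (SE 0.31, adjusted p = 0.046). Stat2 averaged 46.02 ± 0.994 CPM (SD, n = 3) in the controls and between 13.8 in VQ-D5 and 33.2 in VQ-D1. Its change ran from -0.67 (SE 0.21, adjusted p = 0.0079) in VQ-D1 to -1.96 (SE 0.22, adjusted p = 9.0e-08) in VQ-D5.

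Irf1, a factor induced by interferon gamma, was at 100.2, 94.3 and 124 CPM in the controls, 71.9, 94.1, 76.00 and 72.6 in VQ-D1 and 32.9, 27.9, 43.9 and 40.1 in VQ-D2. It was at 49.5, 40.9, 57.6 and 59.97 CPM in VQ-D4, 24.6, 13.4, 22.5 and 10.3 in VQ-D5 and 64.9, 51.4, 54.1 and 31.3 in t-VK12653. No tumour library reached the lowest control. The fall was called in 4 lines and was deepest in VQ-D5, at -2.75 (SE 0.27, adjusted p = 5.4e-08), while the VQ-D1 value of -0.43 (SE 0.25, adjusted p = 0.14) did not pass. Irf9, the DNA-binding subunit of the response complex, split the lines: it rose in VQ-D1, with 0.58 (SE 0.15, adjusted p = 0.0028), and fell in VQ-D4, t-VK12653 and VQ-D5, with -1.76 (SE 0.17, adjusted p = 1.2e-08) in the last. Stat2 and Irf9 correlated at r = 0.724 over the 23 libraries, as a description, since libraries of a line share their donor.

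The cytosolic sensors were lower or not called in all lines, except for Eif2ak2 in VQ-D2. Ddx58, which encodes the RNA sensor RIG-I, was at 125, 121 and 126 CPM in the controls, 38.95, 43.01, 34.8 and 41.8 in VQ-D1 and 20.6, 33.2, 32.7 and 35.1 in VQ-D2. VQ-D4 had 55.4, 32.4, 51.01 and 41.9 CPM, VQ-D5 38.3, 45.2, 39.9 and 35.4 and t-VK12653 20.3, 16.8, 24.6 and 13.6. Every tumour library lay below every control. The change ran from -1.3 (SE 0.19, adjusted p = 5.5e-06) in VQ-D4 to -2.69 (SE 0.18, adjusted p = 6.7e-11) in t-VK12653. The Ddx58 and Gbp3 windows shown above both hold the core.

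Ifih1, which encodes the RNA sensor MDA5, separated the lines further. Its levels were 7.5, 12.4 and 9.9 CPM in the controls, 3.39, 1.86, 3.33 and 5.67 in VQ-D1 and 7.95, 3.1, 5.89 and 5.63 in VQ-D2. They were 0.370, 0, 1.31 and 0 CPM in VQ-D4, 3.68, 2.82, 3.35 and 1.07 in VQ-D5 and 0.411, 0.941, 0.983 and 0.534 in t-VK12653. All VQ-D4 and t-VK12653 libraries lay below all libraries of VQ-D1, VQ-D2 and the controls, and VQ-D4 and VQ-D2 differed, with 3.42 (SE 0.67, adjusted p = 1.7e-04) (VQ-D2 higher). Zbp1, a sensor of Z-form nucleic acid, averaged 98.9 ± 29.8 CPM (SD, n = 3) in the controls and fell in 4 lines, with -3.33 (SE 0.39, adjusted p = 1.3e-06) in VQ-D5 and -2.57 (SE 0.42, adjusted p = 6.2e-05) in VQ-D2. Dhx58, which encodes the regulator LGP2, fell in VQ-D4, VQ-D5 and t-VK12653, by log2 fold changes between -2.26 and -1.81. Eif2ak2, which encodes the kinase PKR, rose in VQ-D2 at 0.75 (SE 0.19, adjusted p = 0.0022) and fell in t-VK12653 at -1.69 (SE 0.19, adjusted p = 1.1e-07) and in VQ-D4 at -0.52 (SE 0.19, adjusted p = 0.023).

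The IFIT genes, which encode proteins that bind viral RNA, and the OAS genes, which encode the synthases that activate RNase L, were near the detection limit in most libraries. Ifit2 was at 3.6, 12.7 and 3.22 CPM in the controls, 0.968, 0.339, 4.21 and 3.12 in VQ-D1 and 0.779, 1.48, 2.23 and 3.38 in VQ-D2. It was at 0, 0.151, 0.654 and 0.322 CPM in VQ-D4, 0.491, 0.470, 0.537 and 0.238 in VQ-D5 and 0.205, 0.565, 0.655 and 0 in t-VK12653. The libraries of the last 3 lines lay below every control, and those of VQ-D1 and VQ-D2 overlapped the controls. The fall was called in VQ-D4, VQ-D5 and t-VK12653, with -4.25 (SE 0.93, adjusted p = 4.1e-04) in VQ-D5, or -3.40 without control replicate 2 (adjusted p = 0.0046). Ifit1 had 10 reads in the controls and 60 in VQ-D1, or 0.957 and 2.20 CPM with the counts of each group pooled. Ifit3 had 9 reads in the controls and none in VQ-D4, VQ-D5 and t-VK12653. The control level of Ifit3 was at least 5.99-fold higher than that of VQ-D4, from pooled counts with a floor of 3 counts over the group.

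Oas3 was lower than the controls in every line but VQ-D2. Its levels were 6.6, 17.9 and 5.2 CPM in the controls, 4.11, 0.847, 4.01 and 1.84 in VQ-D1 and 4.52, 10.03, 11.6 and 11.9 in VQ-D2. In VQ-D4 they were 0.123, 0, 0.654 and 0 CPM, in VQ-D5 2.46, 2.35, 1.61 and 0.951 and in t-VK12653 0.822, 0.565, 1.64 and 0.267. VQ-D2 spanned most of the control range, and every library of the other 4 lines was below every control. VQ-D4 had 3 Oas3 reads in all (fitted change -4.97 (SE 0.83, adjusted p = 3.1e-05)), and the control level was 65.2-fold (95% counting interval 21.7 to 322) higher. Control replicate 2 was the highest control, and without it the fitted change in VQ-D4 was -4.29 (adjusted p = 1.2e-04). The VQ-D1 minus VQ-D2 difference was -2.32 (SE 0.51, adjusted p = 6.1e-04), and VQ-D2 minus VQ-D4 was 5.86 (SE 0.77, adjusted p = 1.1e-06). Oas1a, too sparse for the test, had 52 reads in VQ-D2 and none in VQ-D4, at least 16.03-fold higher in VQ-D2. Oas2 had 16 reads in the controls and 1 in VQ-D4. Oasl2 fell in VQ-D4 and t-VK12653, and Oasl1 fell in VQ-D5 alone of the 5 lines, at -3.32 (SE 1.11, adjusted p = 0.012). Both were at most 9.50 CPM in any library.

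Of the guanylate-binding GTPases, which attack the membranes of intracellular pathogens, the 3 on the list, Gbp3, Gbp7 and Gbp2, each rose in at least 2 VQ lines. Family members outside the list went either way. Gbp8 and Gbp9 lay below every control in all 16 VQ libraries, and Gbp4 and Gbp6 did so in VQ-D4 and VQ-D5. Gbp5 lay above every control in VQ-D1 and VQ-D2. Gbp3 was at 55.2, 34.1 and 25.99 CPM in the controls, 274, 246, 471 and 232 in VQ-D1 and 366, 324, 433 and 401 in VQ-D2. It was at 184, 297, 243 and 343 CPM in VQ-D4, 213, 214, 192 and 171 in VQ-D5 and 52.2, 41.8, 24.6 and 6.68 in t-VK12653. All 16 VQ libraries lay above every control and every t-VK12653 library. The rise was 2.27 (SE 0.45, adjusted p = 4.0e-04) in VQ-D5, 2.84 (SE 0.49, adjusted p = 1.6e-04) in VQ-D4, 3.44 (SE 0.51, adjusted p = 3.4e-05) in VQ-D2 and 3.1 (SE 0.45, adjusted p = 2.9e-05) in VQ-D1 on the log2 scale. In t-VK12653 it was -0.09 (SE 0.46, adjusted p = 0.88), and the VQ mean exceeded t-VK12653 by 3.0 (SE 0.36, adjusted p = 3.0e-06).

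Gbp7, which lies beside Gbp3 on chromosome 3, was at 109.5, 35.8 and 21.8 CPM in the controls, 82.99, 91.8, 170.1 and 86.7 in VQ-D1 and 113, 137, 168 and 237 in VQ-D2. It was at 227, 429.9, 185 and 262 CPM in VQ-D4, 72.7, 77.4, 49.6 and 67.6 in VQ-D5 and 12.1, 9.98, 4.26 and 0.534 in t-VK12653. The highest single value was that of the VQ-D4 liver library, and t-VK12653 lay below every other library. VQ-D4 and VQ-D2 passed the test against the controls, at 2.15 (SE 0.55, adjusted p = 0.0039) and 1.73 (SE 0.58, adjusted p = 0.02). The VQ-D2 call was lost without control replicate 2 (adjusted p = 0.069) or control replicate 3 (adjusted p = 0.051), and the VQ-D4 call was lost with BM libraries alone (1.98, adjusted p = 0.10). t-VK12653 was lower, at -2.7 (SE 0.61, adjusted p = 0.0014). Gbp2, of the same cluster, rose in VQ-D1, at 1.75 (SE 0.45, adjusted p = 0.0027), and VQ-D2 and fell in VQ-D5 and t-VK12653, and the VQ-D1 to VQ-D5 difference was 3.94 (SE 0.46, adjusted p = 8.5e-07). Over 23 libraries Gbp3 and Gbp7 correlated at r = 0.886, Gbp2 and Gbp7 at 0.831 and Gbp2 and Gbp3 at 0.754. These paralogs are similar in sequence, so reads that match more than 1 of them may have been split or dropped in counting.

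Mx1, which encodes an antiviral dynamin-like GTPase, had no read in t-VK12653 and 20 in the controls, at least 10.8-fold higher in the controls. The fitted change, which depends on the prior count, was -6.94 (SE 1.65, adjusted p = 0.0014), and -6.34 without control replicate 2 (adjusted p = 0.0072). Mx1 also fell in VQ-D5, at -2.83 (SE 1.06, adjusted p = 0.025). Mx2 was too sparse for the test, with 25 reads in VQ-D1 (0.915 CPM from pooled counts), 2 in the controls (0.191 CPM) and none in t-VK12653.

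**Figure D2:**
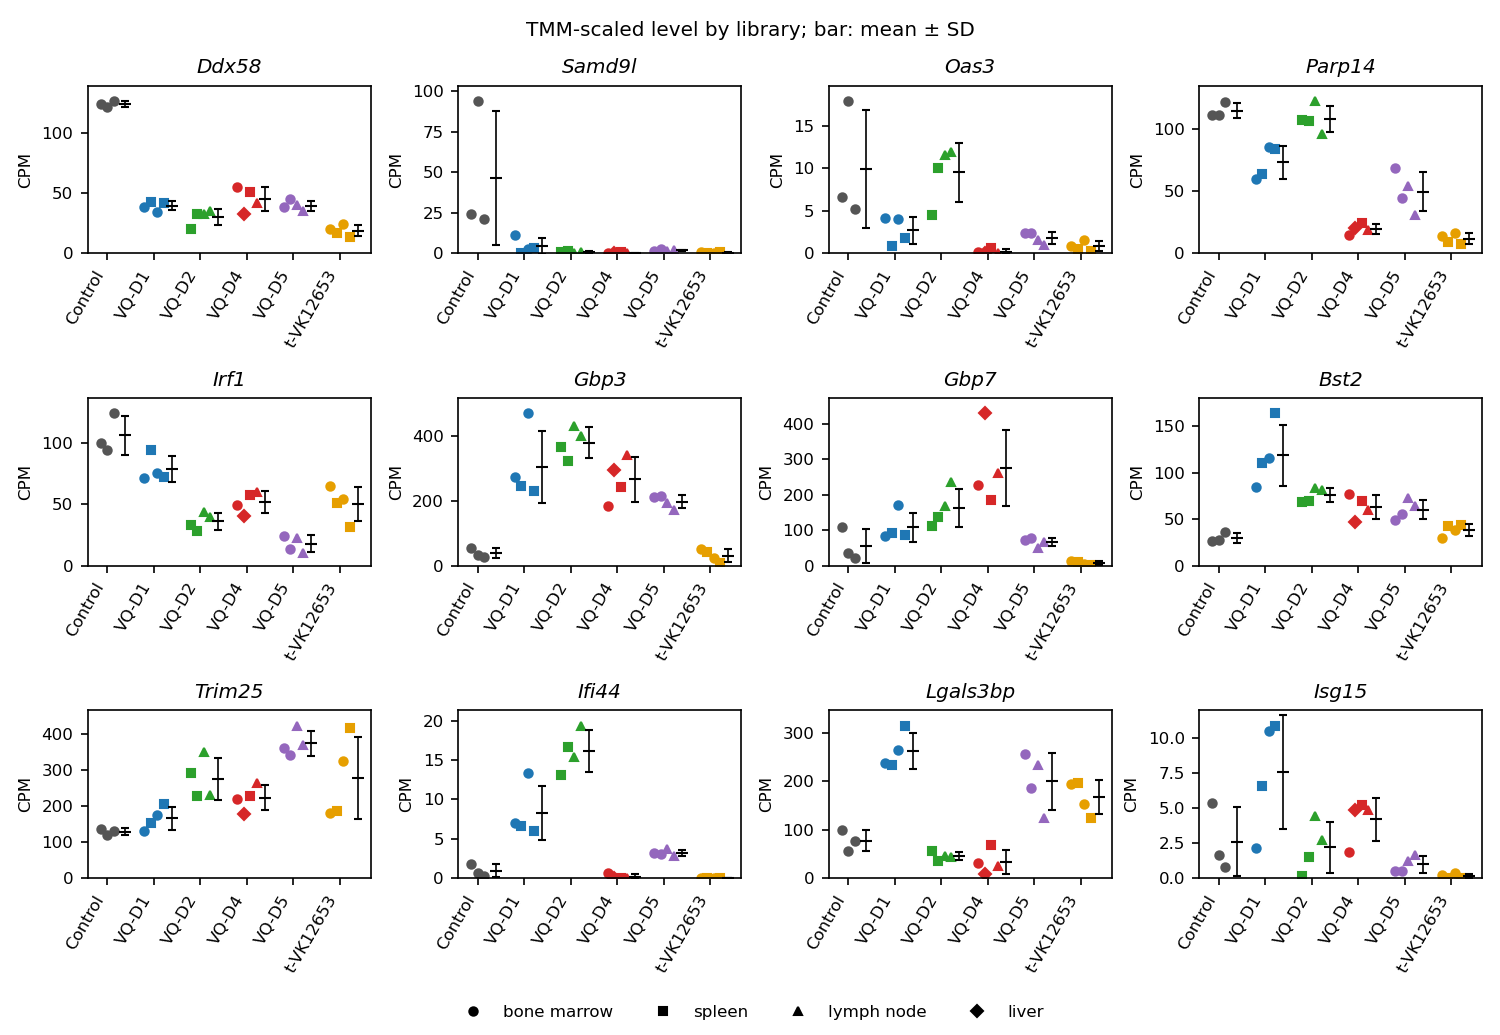
TMM-scaled level (CPM, linear axis from 0) of 12 genes in every library; point shape gives the tissue, colour the group, and the black bar the mean ± SD of the group (lower ends are cut at 0). Ddx58 is high in the 3 controls alone, Gbp3 in the 16 VQ libraries, and Parp14 is low in VQ-D4 and t-VK12653.

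Within the ISG15 system, Trim25 rose in 4 lines while Herc6 fell in all 5. Isg15, the ubiquitin-like modifier itself, was at 5.4, 1.63 and 0.743 CPM in the controls, 2.18, 6.6, 10.6 and 10.9 in VQ-D1 and 0.156, 1.48, 4.47 and 2.7 in VQ-D2. It was at 1.85, 4.85, 5.23 and 4.84 CPM in VQ-D4, 0.491, 0.470, 1.21 and 1.66 in VQ-D5 and 0.205, 0, 0.328 and 0 in t-VK12653. Only t-VK12653 lay wholly below the controls. VQ-D5 and t-VK12653 were lower by the test, and with 2 reads in t-VK12653 the control level was 21.1-fold (95% counting interval 5.29 to 184) higher. VQ-D1 exceeded VQ-D5 by 3.85 (SE 0.73, adjusted p = 1.1e-04).

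Trim25, an E3 ligase for ISG15 that also activates RIG-I, was at 137, 118 and 129.7 CPM in the controls, 131, 152, 175 and 205 in VQ-D1 and 291, 226, 350.2 and 231 in VQ-D2. It was at 220.5, 179, 227 and 265 CPM in VQ-D4, 362, 342, 423 and 369 in VQ-D5 and 181, 187, 325 and 416 in t-VK12653. All libraries of VQ-D2, VQ-D4, VQ-D5 and t-VK12653 lay above the controls, and VQ-D1 overlapped them. The rise was 1.3 (SE 0.26, adjusted p = 3.2e-04) in VQ-D5 and 0.99 (SE 0.26, adjusted p = 0.0034) in t-VK12653. Trim25 correlated negatively (r = -0.53, 23 libraries) with the mean of the other tested genes. Herc6, the mouse E3 ligase of ISG15, fell in all 5 lines, from -1.23 (SE 0.49, adjusted p = 0.037) in VQ-D2 to -3.83 (SE 0.49, adjusted p = 6.0e-07) in VQ-D5. Usp18, which removes ISG15 and restrains the receptor, averaged 3.84 ± 0.109 CPM (SD, n = 3) in the controls and fell in VQ-D5, at -4.49 (SE 1.2, adjusted p = 0.0025), and in t-VK12653 and VQ-D4. It had 1 read in VQ-D4 (fitted change -5.58 (SE 1.5, adjusted p = 0.0033)), where the control level was 79.9-fold (95% counting interval 13.5 to 3233) higher.

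Parp9, Dtx3l and Parp14, neighbours on chromosome 16, encode 2 ADP-ribosyltransferase family members and the ligase partner of PARP9. Parp9 and Dtx3l overlap in the annotation, so reads from their shared stretch cannot be assigned unless strand was used. Dtx3l was at 63.6, 85.8 and 90.1 CPM in the controls, 125, 138, 147 and 141 in VQ-D1 and 134, 117, 137 and 106 in VQ-D2. It was at 51.3, 50.7, 74.6 and 53.5 CPM in VQ-D4, 132, 112, 143 and 93.9 in VQ-D5 and 50.3, 65.7, 63.2 and 62.3 in t-VK12653. VQ-D1, VQ-D2 and VQ-D5 lay above the controls, and VQ-D4 and t-VK12653 overlapped them. All 5 changes were called, from 0.62 (SE 0.15, adjusted p = 0.0015) in VQ-D1 to -0.55 (SE 0.17, adjusted p = 0.0093) in VQ-D4.

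Parp14 was at 111, 112 and 122 CPM in the controls, 60.2, 63.7, 85.97 and 83.7 in VQ-D1 and 108, 106, 122 and 96.4 in VQ-D2. It was at 14.7, 20.4, 24.9 and 18.7 CPM in VQ-D4, 68.7, 44.9, 54.2 and 30.9 in VQ-D5 and 14.2, 9.6, 16.7 and 7.21 in t-VK12653. VQ-D2 overlapped the controls, and VQ-D4 and t-VK12653 lay below every library of the other groups. The change was -0.00 (SE 0.29, adjusted p = 1) in VQ-D2, -2.55 (SE 0.29, adjusted p = 5.7e-07) in VQ-D4 and -3.25 (SE 0.26, adjusted p = 5.5e-09) in t-VK12653. Parp9 fell in VQ-D4 and t-VK12653 as well, by less, at -0.46 and -0.59.

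Among the other antiviral effectors, Bst2, which encodes the membrane protein tetherin, rose in all 4 VQ lines. Bst2 was at 26.4, 27.6 and 36.4 CPM in the controls, 84.9, 111, 116 and 164 in VQ-D1 and 68.2, 70.1, 84.1 and 81.6 in VQ-D2. It was at 76.9, 46.96, 69.98 and 59.6 CPM in VQ-D4, 49.6, 55.5, 72.3 and 64.1 in VQ-D5 and 29.6, 42.2, 38.7 and 43.8 in t-VK12653. Every VQ library lay above every control, and t-VK12653 overlapped them. The change ran from 0.73 (SE 0.19, adjusted p = 0.0025) in VQ-D5 over 0.96 (SE 0.2, adjusted p = 3.1e-04) in VQ-D4 to 1.75 (SE 0.19, adjusted p = 8.1e-08) in VQ-D1. Plasmacytoid dendritic cells also express Bst2, and their part in its level was not tested. The summed level of 12 other dendritic cell markers was 329 to 408 CPM in the controls and 148 to 340 CPM in the tumour libraries, ranges that overlap.

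Samd9l, which encodes an inhibitor of translation and growth, fell in all 5 lines. Its levels were 24.00, 93.7 and 21.3 CPM in the controls, 11.6, 0.508, 2.54 and 3.55 in VQ-D1 and 0.779, 1.48, 0.203 and 1.13 in VQ-D2. They were 0.123, 0, 0.654 and 0 CPM in VQ-D4, 1.72, 2.59, 1.21 and 1.9 in VQ-D5 and 0.616, 0, 0.328 and 0.801 in t-VK12653. Every tumour library lay below every control, though control replicate 2 was far above the other controls. The change was -3.15 (SE 0.72, adjusted p = 0.001) in VQ-D1, -4.74 (SE 1.01, adjusted p = 5.7e-04) in VQ-D2 and -6.31 (SE 0.94, adjusted p = 1.6e-05) in t-VK12653. VQ-D4 had 3 reads (fitted change -7.27 (SE 1.19, adjusted p = 5.1e-05)), and the control level was 302-fold (95% counting interval 103 to 1471) higher. Without control replicate 2 the changes were -2.17 in VQ-D1 (adjusted p = 0.0098), -3.78 in VQ-D2 (adjusted p = 0.0013), -6.27 in VQ-D4 (adjusted p = 5.9e-05) and -5.34 in t-VK12653 (adjusted p = 2.5e-05).

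Rsad2, which encodes viperin, and its neighbour Cmpk2, a nucleotide kinase, fell in all 5 lines. Rsad2 was at 4.2, 22.4 and 2.97 CPM in the controls and at most 3.15 CPM in any tumour library, with VQ-D1 overlapping the controls. Its change was -3.39 (SE 0.83, adjusted p = 0.0014) in VQ-D1 and -3.26 (SE 1.02, adjusted p = 0.0094) in VQ-D2. Without control replicate 2 the VQ-D1 value was -1.98 (adjusted p = 0.051) and the VQ-D2 value -1.87 (adjusted p = 0.12), and with BM libraries alone the VQ-D1 value was -2.65 (adjusted p = 0.06). Cmpk2 averaged 14.7 ± 5.91 CPM (SD, n = 3) in the controls, and its fall in VQ-D1, -3.56 (SE 0.58, adjusted p = 1.8e-05), held without that library (-3.23, adjusted p = 1.2e-04). Among genes over 5 CPM, control replicate 2 was more than 2 times the next control for 4, Ifit2, Oas3, Rsad2 and Samd9l. Below that limit Oas2 (1, 15 and 0 reads in the controls) and Mx2 (0, 2 and 0 reads) also met this rule. Neutrophil RNA was highest in that library too. Rtp4, a chaperone with antiviral activity whose annotation overlaps Masp1, fell in VQ-D5 and had no read in t-VK12653 (fitted change -6.12 (SE 1.77, adjusted p = 0.0061)), where the control level was at least 11.9-fold higher.

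Of the remaining genes, Ifi44, a cytoplasmic interferon-induced protein, was at 1.8, 0.650 and 0.247 CPM in the controls, 7.02, 6.6, 13.3 and 5.96 in VQ-D1 and 13.1, 16.7, 15.4 and 19.4 in VQ-D2. It was at 0.617, 0, 0 and 0 CPM in VQ-D4, 3.19, 3.06, 3.62 and 2.73 in VQ-D5 and 0 in all 4 libraries of t-VK12653. VQ-D1, VQ-D2 and VQ-D5 lay above every control without overlap. The rise was 3.42 (SE 0.54, adjusted p = 2.5e-05) in VQ-D1, 4.56 (SE 0.62, adjusted p = 4.4e-06) in VQ-D2 and 1.91 (SE 0.61, adjusted p = 0.0098) in VQ-D5. The VQ-D5 call was lost without control replicate 3 (1.44, adjusted p = 0.052) and with BM libraries alone (1.69, adjusted p = 0.071). Against t-VK12653, VQ-D2 was at least 90.04-fold higher.

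Lgals3bp, a secreted glycoprotein, was at 99.6, 55.3 and 76.98 CPM in the controls, 239, 234, 266 and 316 in VQ-D1 and 56.4, 35.7, 46.3 and 42.6 in VQ-D2. It was at 31.7, 8.79, 67.7 and 24.2 CPM in VQ-D4, 257, 186, 234 and 124 in VQ-D5 and 195, 197, 154 and 124 in t-VK12653. VQ-D1, VQ-D5 and t-VK12653 lay above every control, while VQ-D2 and VQ-D4 overlapped them. The VQ-D1 rise was 1.61 (SE 0.32, adjusted p = 3.7e-04), the VQ-D5 rise 1.38 (SE 0.32, adjusted p = 0.0013) and the VQ-D4 fall -1.0 (SE 0.36, adjusted p = 0.027), and the lines differed by 2.61 (SE 0.33, adjusted p = 8.8e-06). The t-VK12653 rise, 1.01 (SE 0.31, adjusted p = 0.011), was lost without control replicate 2 (0.79, adjusted p = 0.073) or t-VK12653 replicate 1 (0.84, adjusted p = 0.053).

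Ifi27, a mitochondrial interferon-induced protein gene that overlaps Ifi27l2a, averaged 15.8 ± 2.74 CPM (SD, n = 3) in the controls. Its change in VQ-D5 was -4.52 (SE 0.42, adjusted p = 5.7e-09). It fell in 4 lines, to 0.346 ± 0.0624 CPM in t-VK12653 and 0.647 ± 0.117 in VQ-D5 (SD, n = 4), and averaged 11.9 ± 3.78 in VQ-D2, where the change did not pass the test. Xaf1, a pro-apoptotic factor, rose in VQ-D2 at 1.15 (SE 0.49, adjusted p = 0.048). Xaf1 had 3 reads in t-VK12653, and the control level was 31.95-fold (95% counting interval 10.4 to 159) higher. Ifi35, a leucine zipper protein, rose in VQ-D1 and VQ-D2 and fell in VQ-D4, at 0.82, 0.64 and -0.75.

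**Figure D3:**
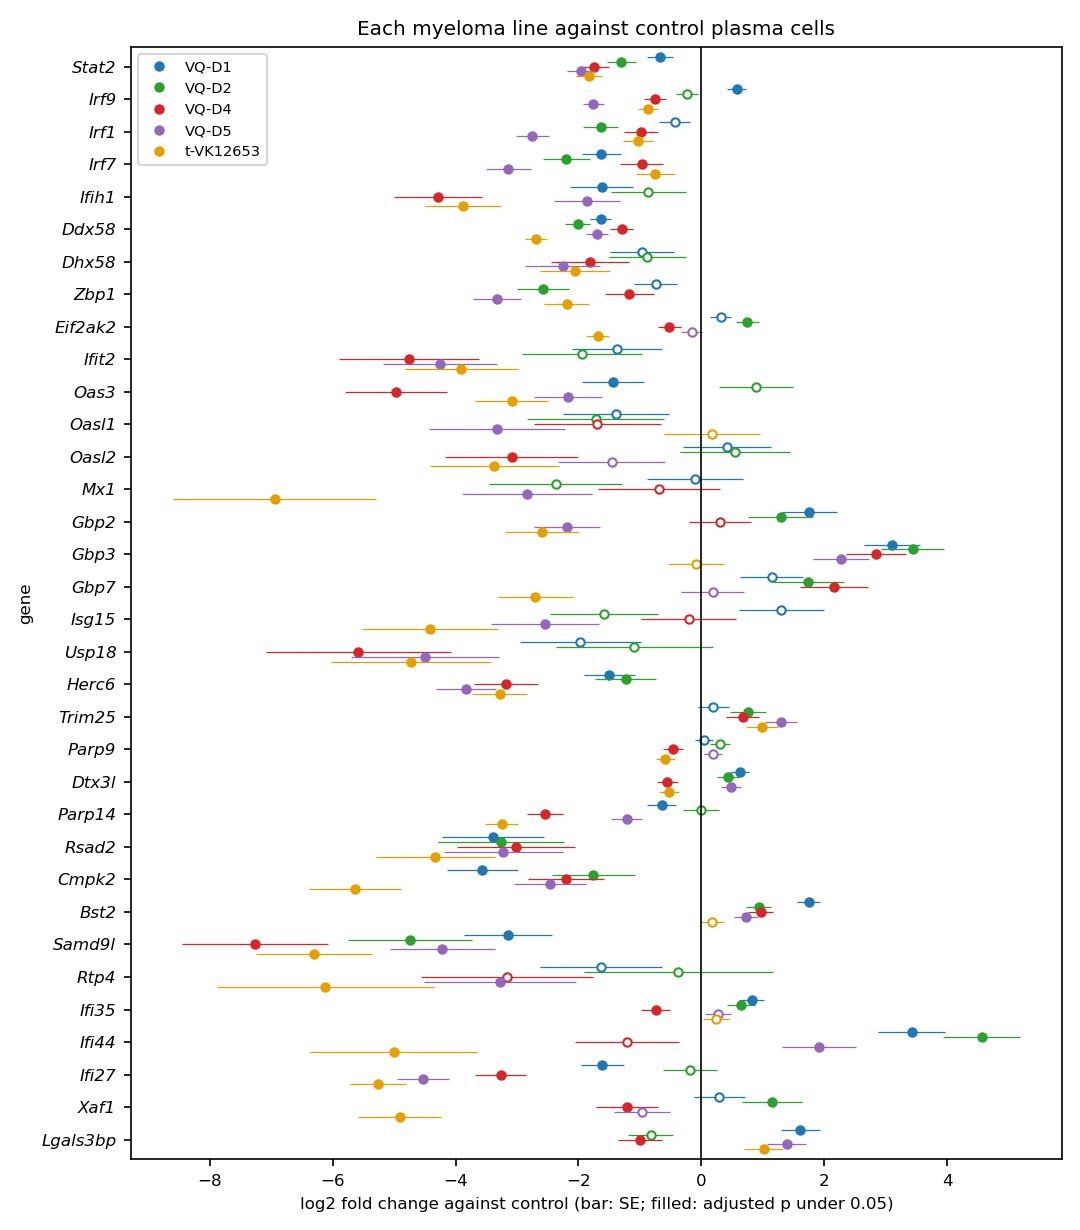
Log2 fold change of each of the 34 tested genes (vertical axis) in each line against the controls (horizontal axis), with SE as bars; filled points passed an adjusted p under 0.05 and open points did not. Gbp3 lies between 2.27 and 3.44 in the 4 VQ lines and at -0.09 in t-VK12653, and Samd9l lies left of -3 in all 5 lines.

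The 4 VQ lines share 1 genotype, and 28 of 34 genes varied among them, close to the share of all genes that did (80.6%). Over all 6 groups 34 of 34 varied (93.3% of all genes). Neither count is read as particular to this list. VQ-D1 was higher than VQ-D4 for 19 genes and lower for none (20.4% and 20.8% of all genes). It was higher than VQ-D5 for 18 and lower for 1, Trim25 (28.8% and 29.7%). VQ-D2 was higher than VQ-D4 for 16 and lower for 4 (29.4% and 27.6%), and higher than VQ-D5 for 19 and lower for 1, Lgals3bp (18.6% and 20%). Neutrophil and macrophage markers were also higher in VQ-D1: against VQ-D4, 10 of 16 neutrophil and 5 of 10 monocyte and macrophage genes were higher and none lower, and against VQ-D5 12 of 16 and 7 of 10 were higher and none lower. For VQ-D2 these were 2 of 16 and 1 of 10 higher than VQ-D4, with 2 macrophage genes lower, and 1 of 16 and 2 of 10 higher than VQ-D5. The part of such cells in these differences was not tested. VQ-D1 was higher than VQ-D2 for 8 genes, Isg15 and Mx1 among them (2.88 (SE 0.68, adjusted p = 0.0012) and 2.27 (SE 0.82, adjusted p = 0.027)), and lower for 6 (24.8% and 26.5%). VQ-D4 was higher than VQ-D5 for 9 and lower for 9 (29.1% and 29.6%). Among the widest gaps, VQ-D1 minus VQ-D2 was 2.43 (SE 0.31, adjusted p = 5.8e-06) for Lgals3bp, -1.81 (SE 0.62, adjusted p = 0.019) for Cmpk2 and -1.43 (SE 0.33, adjusted p = 0.001) for Ifi27. VQ-D1 minus VQ-D4 was 4.64 (SE 0.6, adjusted p = 4.7e-06) for Ifi44, 4.11 (SE 1.25, adjusted p = 0.013) for Samd9l and 3.53 (SE 0.82, adjusted p = 0.0015) for Oas3. VQ-D1 minus VQ-D5 was 2.91 (SE 0.41, adjusted p = 2.7e-06) for Ifi27 and -1.1 (SE 0.24, adjusted p = 7.8e-04) for Trim25.

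For VQ-D2 minus VQ-D4 the difference was 5.77 (SE 0.59, adjusted p = 1.2e-07) for Ifi44 and 4.49 (SE 1.49, adjusted p = 0.013) for Usp18. The 4 genes lower in VQ-D2 were Zbp1, at -1.4 (SE 0.35, adjusted p = 0.0025), Irf7, at -1.23 (SE 0.33, adjusted p = 0.0027), Ddx58, at -0.71 (SE 0.17, adjusted p = 0.0013), and Irf1. VQ-D2 minus VQ-D5 was 4.34 (SE 0.39, adjusted p = 1.2e-08) for Ifi27, 3.47 (SE 0.44, adjusted p = 7.7e-06) for Gbp2, 3.4 (SE 1.08, adjusted p = 0.016) for Usp18 and -2.21 (SE 0.3, adjusted p = 1.8e-05) for Lgals3bp. The median difference over the 34 genes was 1.26 for VQ-D1 minus VQ-D4, 1.27 for VQ-D1 minus VQ-D5, 0.85 for VQ-D2 minus VQ-D4 and 1.05 for VQ-D2 minus VQ-D5, and it was -0.11 for VQ-D1 minus VQ-D2 and 0.21 for VQ-D4 minus VQ-D5. Gbp2, Herc6, Ifi27, Ifi44, Ifit2, Eif2ak2, Irf9, Oasl2, Parp14 and Xaf1 were higher in both VQ-D1 and VQ-D2 than in both VQ-D4 and VQ-D5. Each of these 4 comparisons alone called 18.6% to 29.4% of all genes higher. The share of all genes with the joint pattern was not counted, so it is not read as particular to this list.

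VQ-D4 and VQ-D5 shared 17 genes called lower than the controls they have in common, 70.8% of the 24 of VQ-D4 and 77.3% of the 22 of VQ-D5. Of all genes, 26.9% were lower in VQ-D4 and 32.5% in VQ-D5. The overlap over all genes was not counted, so it is not read as a trait of these genes. Dtx3l and Lgals3bp were lower in VQ-D4 and higher in VQ-D5. Compared directly, VQ-D4 exceeded VQ-D5 for Ddx58, Gbp2, Gbp7, Ifi27, Irf1, Irf7, Irf9, Isg15 and Zbp1, with Isg15 at 2.34 (SE 0.74, adjusted p = 0.0096), Irf7 at 2.17 (SE 0.35, adjusted p = 1.6e-05) and Gbp2 at 2.48 (SE 0.46, adjusted p = 1.7e-04). VQ-D5 exceeded VQ-D4 for Dtx3l, Ifi35, Ifi44, Ifih1, Lgals3bp, Oas3, Parp14, Parp9 and Trim25, with Ifi44 at -3.12 (SE 0.64, adjusted p = 3.6e-04), Oas3 at -2.8 (SE 0.86, adjusted p = 0.0077) and Ifih1 at -2.42 (SE 0.7, adjusted p = 0.005) (VQ-D4 minus VQ-D5). The VQ-D1 library of replicate 1 held more neutrophil RNA (1208 CPM) than any other tumour library, and VQ-D4 replicate 2, from liver, more endothelial, stromal and hepatocyte RNA (767 CPM).

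Against the controls, the mean of the VQ lines was higher for 5 genes and lower for 18 (28.7% and 31.8% of all genes). The rise was 2.91 (SE 0.43, adjusted p = 2.9e-05) for Gbp3, 2.17 (SE 0.58, adjusted p = 0.003) for Ifi44 and 1.3 (SE 0.47, adjusted p = 0.027) for Gbp7. The fall was -4.84 (SE 0.67, adjusted p = 5.4e-06) for Samd9l, -3.28 (SE 0.95, adjusted p = 0.005) for Usp18 and -3.22 (SE 0.72, adjusted p = 5.8e-04) for Rsad2. The VQ mean was higher than t-VK12653 for 19 genes and lower for 3 (29.6% and 31.6% of all genes), with a median of 1.13 over the 34 genes and 0.02 over all genes. Ifi44, Mx1 and Rtp4 had no read in t-VK12653, and the pooled VQ level was at least 40.9-fold higher for Ifi44 and at least 7.69-fold higher for Mx1. The fitted differences were 7.18 (SE 0.96, adjusted p = 2.4e-06) for Ifi44, 5.44 (SE 1.59, adjusted p = 0.0059) for Mx1 and 4.73 (SE 0.57, adjusted p = 2.7e-07) for Xaf1. The Ifi44 call was lost without VQ-D4 replicate 1 (6.20), which left VQ-D4 with no Ifi44 read either. VQ-D1, VQ-D2 and VQ-D5 held 246, 359 and 76 reads of it. The Mx1 call was lost with BM libraries alone (5.06, adjusted p = 0.097). The pooled VQ level of Xaf1 was 39.6-fold (95% counting interval 13.5 to 193) higher. The 3 lower genes were Oasl1 (-2.2 (SE 0.68, adjusted p = 0.0075)), Irf7 (-1.24 (SE 0.24, adjusted p = 1.1e-04)) and Lgals3bp (-0.72 (SE 0.22, adjusted p = 0.0092)). Oasl1 was at 1.64, 0.753, 9.5 and 0.801 CPM in the t-VK12653 libraries, so its level there was set by 1 library, and its call was lost without line VQ-D5 (-1.45, adjusted p = 0.068). That of Lgals3bp was lost without line VQ-D2 (-0.29, adjusted p = 0.32) or VQ-D4 (-0.31, adjusted p = 0.18) and with BM libraries alone (-0.59, adjusted p = 0.054).

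When the libraries of each VQ line were summed, so that 4 donors stood against 3 controls, all 39 genes were tested and fewer passed. Gbp3 (2.93 (SE 0.37, adjusted p = 0.0047)), Bst2 (1.45 (SE 0.3, adjusted p = 0.015)) and Trim25 (1.05 (SE 0.29, adjusted p = 0.036)) were higher (13.7% of all genes). Samd9l (-4.77 (SE 1.02, adjusted p = 0.017)), Rsad2 (-3.17 (SE 0.75, adjusted p = 0.024)), Cmpk2 (-2.73 (SE 0.52, adjusted p = 0.012)), Oasl1, Irf7 and Ddx58 (-1.66 (SE 0.19, adjusted p = 0.0037)) were lower (9.27% of all genes). The median over the 39 genes was -0.84, against 0.19 over all genes; with RLE scaling these were -0.97 and 0.07. Without control replicate 2 the counts were 1 higher and 1 lower, with Bst2, Trim25, Cmpk2, Rsad2 and Samd9l lost (adjusted p 0.055 to 0.15), Rsad2 at -1.78 and Samd9l at -3.80. Without control replicate 1 Bst2 and Trim25 were lost. Trim25 was also lost without control replicate 3, without line VQ-D2 or VQ-D5 and with RLE scaling (adjusted p = 0.06). With BM libraries alone, which leave out VQ-D2, Trim25 (0.87, adjusted p = 0.092) and Rsad2 (-3.27, adjusted p = 0.055) were lost. This fit has no tissue term, and all the controls are BM.

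No gene of the 34 was called between spleen and BM or between LN and BM by edgeR, where 0% of all genes were called either way for spleen and 0.00777% either way for LN. At an unadjusted p under 0.05 edgeR gave 3 (Eif2ak2, Oas3 and Cmpk2) and 2 (Isg15 and Zbp1), DESeq2 4 and 2, and limma voom with the recipient as a block 6 and 4. Neither of these called any of the 34 after adjustment. Only VQ-D1, VQ-D4 and t-VK12653 hold both spleen and BM libraries, and only VQ-D4 and VQ-D5 hold both LN and BM. A difference between sites may thus have been missed.

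The receptor pathway upstream differed between lines gene by gene. Jak1, the kinase shared by the type I and type II receptors, was at 157, 256 and 216 CPM in the controls, 104, 103, 112 and 110.2 in VQ-D1 and 241, 188, 221 and 183 in VQ-D2. It was at 19.2, 8.94, 12.1 and 11.6 CPM in VQ-D4, 224, 203, 217 and 178 in VQ-D5 and 1.44, 0.188, 0.328 and 0.267 in t-VK12653. VQ-D2 and VQ-D5 overlapped the controls, VQ-D1 lay below them, VQ-D4 lay lower still, and t-VK12653 held 10 reads in all. The change was -3.76 (SE 0.22, adjusted p = 1.9e-11) in VQ-D4, -8.37 (SE 0.3, adjusted p = 8.3e-15) in t-VK12653, -0.97 (SE 0.18, adjusted p = 1.1e-04) in VQ-D1 and -0.02 (SE 0.18, adjusted p = 0.94) in VQ-D5.

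Tyk2, the other kinase of the type I receptor, averaged 111 ± 7.59 CPM (SD, n = 3) in the controls. In the lines it averaged (SD, n = 4 each) 103 ± 22.7 in t-VK12653, 22.7 ± 1.83 in VQ-D5, 60.8 ± 12.5 in VQ-D4, 38.2 ± 2.55 in VQ-D2 and 135 ± 8.88 in VQ-D1. It was lower in VQ-D5, at -2.39 (SE 0.16, adjusted p = 3.2e-11), in VQ-D2, at -1.69 (SE 0.17, adjusted p = 3.6e-08), and in VQ-D4, at -1.07 (SE 0.16, adjusted p = 1.1e-05). Jak2 rose in VQ-D1 and VQ-D4 and fell in VQ-D5, at -1.62 (SE 0.16, adjusted p = 1.5e-08). The receptor chain gene Ifnar2 was higher in t-VK12653 and VQ-D4, at 1.13 (SE 0.17, adjusted p = 1.2e-05) and 0.68 (SE 0.18, adjusted p = 0.0036), and lower in VQ-D2 and VQ-D5. Ifnar1 fell in VQ-D1 and VQ-D5, at -0.55 (SE 0.13, adjusted p = 5.9e-04) in the latter. Ifngr1, a chain of the interferon gamma receptor, fell in all 5 lines, from -1.87 (SE 0.32, adjusted p = 3.8e-05) in VQ-D2 to -1.26 (SE 0.26, adjusted p = 3.6e-04) in VQ-D1. Its partner Ifngr2 was higher in t-VK12653, at 0.64 (SE 0.23, adjusted p = 0.023), and lower in VQ-D5, at -1.04 (SE 0.25, adjusted p = 9.2e-04). Socs3, which encodes a feedback inhibitor of JAK signalling, fell in VQ-D1, at -3.81 (SE 0.86, adjusted p = 8.1e-04), and in VQ-D5 and t-VK12653, and the related Socs1 was called in no line. Tyk2, Jak2, Ifnar1, Ifngr1, Ifngr2 and Socs1 were chosen after their values were seen. Of these 9 genes, the test called 2 higher and 3 lower in t-VK12653 (28.8% and 28.1% of all genes), 0 higher and 7 lower in VQ-D5 (31.2% and 32.5%), 2 higher and 3 lower in VQ-D4 (27.5% and 26.9%), 0 higher and 3 lower in VQ-D2 (29.6% and 27.8%) and 1 higher and 4 lower in VQ-D1 (29.7% each way). Most of these counts are near the shares of all genes.

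**Figure D4:**
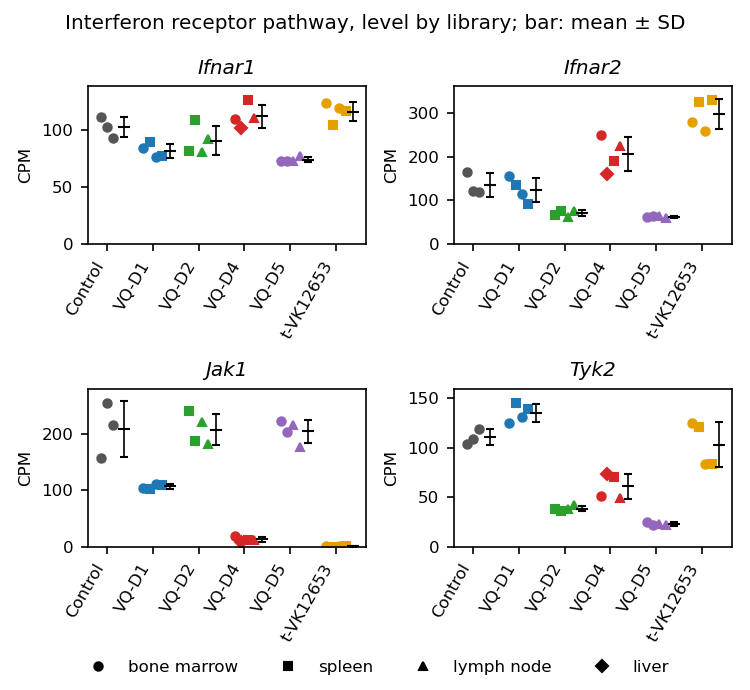
TMM-scaled level (CPM, linear axis from 0) of Ifnar1, Ifnar2, Jak1 and Tyk2 in every library; point shape gives the tissue, colour the group, and the black bar the mean ± SD. Jak1 is at 8.94 to 19.2 CPM in VQ-D4 and at most 1.44 CPM in t-VK12653, while Tyk2 is lowest in VQ-D5.

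The interferons themselves were almost unread. Of 19 ligand genes in the tables, 8 had no read in any of the 23 libraries, and the other 11 had 38 reads in all. Ifnk had 12 of these, Ifnab 7, Ifna11, Ifna13 and Ifng 4 each, Ifna14 2, and Ifna4, Ifnb1, Ifne, Ifnl3 and Ifnz 1 each. None was tested. A list of 17 tested genes covers interferon production (sensors, adaptors, IRFs and regulators). It includes Adar, Samhd1 and Trex1, which restrain production, so its counts do not describe inducers alone. In VQ-D4 12 were lower and 1 higher (26.9% and 27.5% of all genes), and in t-VK12653 7 were lower and none higher (28.1% and 28.8%). In VQ-D1 6 were lower and 3 higher (29.7% each way), in VQ-D2 8 and 3 (27.8% and 29.6%) and in VQ-D5 8 and 2 (32.5% and 31.2%). Tlr7, an endosomal RNA receptor gene, averaged 21.1 ± 7.2 CPM (SD, n = 3) in the controls and changed by -4.14 (SE 0.71, adjusted p = 4.9e-05) in VQ-D1. Tmem173, which encodes the adaptor STING, was higher in VQ-D5 (2.26 (SE 0.26, adjusted p = 4.2e-07)) and VQ-D2 (1.61 (SE 0.29, adjusted p = 1.3e-04)) and lower in t-VK12653 (-3.37 (SE 0.32, adjusted p = 6.2e-08)).

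A second list of 43 tested interferon-induced genes, with none of the 39, had 30 lower and 2 higher genes in t-VK12653 (28.1% and 28.8% of all genes). It had 28 and 7 in VQ-D5 (32.5% and 31.2%), 33 and 4 in VQ-D4 (26.9% and 27.5%), 13 and 8 in VQ-D2 (27.8% and 29.6%) and 20 and 7 in VQ-D1 (29.7% each way). In VQ-D2 the lower count was near the share of all genes. The VQ mean was higher than t-VK12653 for 21 of the 43 and lower for 6 (29.6% and 31.6%). Helz2 had the highest mean level of the 43, with 445 ± 25.8 CPM (SD, n = 3) in the controls and 244 ± 52.7 (n = 4) in t-VK12653. Pyhin1, of the family of DNA-binding interferon-inducible proteins, averaged 38.1 ± 3.89 CPM in the controls and 0.129 ± 0.159 in t-VK12653.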

How the data were processed

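Extraction of total RNA used an RNeasy Micro kit, per the labels' protocols, and the RNA was made into libraries with a SMARTer stranded total RNA kit for small inputs. The submitters' processing notes name STAR, featureCounts, DESeq2, GRCm38 and mm10, without versions or settings. For strand and annotation the settings were not given in the sources used here. Tables deposited for each library hold, per the file headers, whole read counts and TPM values made by the authors for 24063 gene symbols. Counts were tested, and TPM was used only to compare levels between genes.

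The analysis used R 4.3.3, edgeR 4.0.16 with its robust quasi-likelihood test, TMM scaling and filterByExpr (minimum count 10, minimum total 15), limma 3.58.1 and DESeq2 1.42.0. The fit of 23 libraries had group and tissue as terms and 14 residual degrees of freedom. P-values were adjusted over all genes tested by the Benjamini-Hochberg method. The fit on VQ line sums had no tissue term. CPM values are TMM-scaled, and correlations used log2 CPM with a prior count of 2. Bounds used a floor of 3 counts per group, and intervals cover counting error only, since reads carry no molecular identifiers. Chi-square per degree of freedom between libraries of a group was 4.57 to 22.3, so none was a repeat deposit. The scripts were tested on simulated data.

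The genes and lists were chosen with earlier results of these data known. All 39 genes are named. In each role, the gene with the highest mean and that with the widest range of group means are given in every library. In each comparison, the 3 highest and 3 lowest called changes are named with fold change, SE and adjusted p, with a ratio of counts beside it where a group had at most 3 reads. Of the pathway lists, the genes of highest mean or largest change are named, and an item of these lists is not reported here. Alternatives were RLE scaling, no filter, DESeq2, no tissue term, a replicate block, BM alone, limma voom with the recipient in the table names as a block, a prior count of 0.5 and leaving out each library. Leaving out each VQ line was added after seeing the data.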

Additional observations from a re-analysis of the deposited data

Results flagged for a closer look

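Among 80 groups of 4 libraries, 5 lines for each of 16 genes, 7 had 1 library far from the other 3 by Dixon's criterion at the 95% level, and chance alone marks about 1 in 20 groups. Irf7 was at 23.5 CPM in VQ-D4 replicate 3 against 9.85 to 11.6 in the others. Ddx58 was at 20.6 CPM in VQ-D2 replicate 1 against 32.7 to 35.1. Gbp7 was at 170.1 CPM in VQ-D1 replicate 3 against 83.0 to 91.8, and Ifi44 in the same library at 13.3 CPM against 5.96 to 7.02. Isg15 was at 1.85 CPM in VQ-D4 replicate 1 against 4.84 to 5.23, and Dtx3l at 74.6 CPM in VQ-D4 replicate 3 against 50.7 to 53.5. Ifi44 was at 0.617 CPM in VQ-D4 replicate 1 and at 0 in the other 3 libraries, a difference of a few reads.

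By a separate rule, 7 genes were higher than the controls in 1 VQ line and lower in another. The difference between the lines was itself called by edgeR, in 13 pairs of lines counted over these genes. With t-VK12653 among the lines, 17.0% of all tested genes were higher in at least 1 line and lower in at least 1 other. The share of all genes with such calls among the VQ lines alone was not counted. The pattern is thus not read as particular to these 7 genes. VQ-D1 exceeded VQ-D4 for Irf9 by a log2 fold change of 1.34, for Dtx3l by 1.18, for Ifi35 by 1.56 and for Lgals3bp by 2.61. VQ-D1 exceeded VQ-D5 for Irf9 by 2.33 and for Gbp2 by 3.94. VQ-D2 exceeded VQ-D4 for Eif2ak2 by 1.27, for Dtx3l by 0.99, for Ifi35 by 1.39 and for Xaf1 by 2.37, and it exceeded VQ-D5 for Gbp2 by 3.47. The VQ-D4 minus VQ-D5 difference was -1.04 for Dtx3l and -2.39 for Lgals3bp.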

How the results depend on the processing

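Of 41 single-gene fold changes recomputed, none reversed. Comparisons of 1 VQ line with another were not recomputed, so their stability is not known. Calls were lost 7 times with BM libraries alone (35 values, VQ-D2 absent) and 16 times on leaving out a library. RLE scaling lost 1 and leaving out a line lost 5. None was lost with DESeq2 or no filter (41 values each). None was lost with limma voom, no tissue term or the replicate block (35 each, the line sums not run). With RLE scaling, 6 genes were higher in VQ-D2 against the controls (10 with TMM). Without the filter, 2 genes were lower in spleen and 2 higher in LN than in BM (0 with the filter). For the VQ line sums, 12 genes were lower with DESeq2 and 18 lower and 5 higher in the 23-library fit averaged over the lines, against 6 and 3; 5 were higher without line VQ-D4. With a prior count of 0.5 the median shift of t-VK12653 libraries from the controls over the 39 genes was -2.44, against -1.94.

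Leaving out each library gave these ranges: VQ-D1 8 to 11 higher and 10 to 12 lower, VQ-D2 6 to 10 and 7 to 11, VQ-D4 3 to 4 and 14 to 25, VQ-D5 5 to 6 and 19 to 25, t-VK12653 1 to 2 and 26 to 28. The VQ mean against t-VK12653 had 16 to 20 higher and 2 to 4 lower, the VQ sums 1 to 3 and 1 to 7, the VQ lines 26 to 31 differing, the 6 groups 33 to 37, and both site comparisons 0. The low-count filter was run anew in each fit, so the number of genes tested could differ from 34.

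With the differences between groups taken out, same-numbered libraries of different groups correlated at a mean r of 0.0083 (55 pairs, -0.22 to 0.15). In the same way, libraries with different numbers correlated at a mean r of -0.0028 (165 pairs, -0.15 to 0.18). These values do not describe how alike the expression levels of the libraries are. Some same-numbered libraries share a tissue, and whether they share a batch was not tested. With the replicate block, 8 genes were higher and 10 lower in VQ-D1, and 4 and 20 in VQ-D4. Depth limits the genes under 5 CPM, where 1 read is worth 0.0978 to 0.328 CPM.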

Other observations

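The 10 tested genes outside all lists whose level was most like the mean standardized log2 CPM of the interferon-stimulated genes over the 23 libraries were Kbtbd7 (r = 0.919), Arhgap4 (0.908), Osbpl8 (0.897), Trim12c (0.883), Slfn2 (0.882), Ksr1 (0.879), Sh3bgrl3 (0.867), Hnrnpul2 (0.864), F2rl1 (0.847) and Trim30d (0.846). Libraries of a line share their donor, so these correlations are descriptions. Slfn2 averaged 55.2 CPM in the controls, 7.73 in VQ-D1, 7.95 in VQ-D2 and at most 1.13 in VQ-D4, VQ-D5 and t-VK12653. Trim12c averaged 17.97 CPM in the controls, 12.9 in VQ-D2, 7.63 in VQ-D1 and 0.680 in t-VK12653. Among the interferon-stimulated genes themselves the median correlation over 561 pairs was 0.377, and Eif2ak2 and Xaf1 were the most alike (r = 0.934).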
